A study of Mus musculus with 2 samples.

Results

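The organic ion and bile acid uptake transporters described here are the protein-coding genes whose symbols begin with Slc22a, Slco, Slc10a, Slc47a or Slc51, and 50 of the 43346 genes in the mm10 gene tables met that rule. By family they comprised 25 Slc22 genes, 14 Slco genes, 7 Slc10 genes, 2 Slc47 genes and 2 Slc51 genes. The study measured polyadenylated, ribosomal RNA-depleted RNA of whole liver from C57BL/6J mouse embryos at embryonic day 14.5 in 2 stranded libraries of paired 101-base reads. The labels name the libraries biological replicates 1 and 2 of a single group, each made from pooled male and female littermates, with no treatment and no altered allele. Both carry the same donor identifier, and the number of embryos in each pool is not given in the sources used here.

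Slc22 proteins move organic cations, organic anions and zwitterions such as carnitine across the plasma membrane. Slco proteins, the organic anion transporting polypeptides, take up bile acids, steroid conjugates, thyroid hormones and prostaglandins. The Slc10 family holds the sodium-dependent bile acid carriers, Slc47 proteins expel organic cations in exchange for protons, and the Slc51 pair forms a facilitated exporter of bile acids. In adult liver, hepatocytes take up bile acids from sinusoidal blood through Slc10a1 and Slco proteins, whereas at mid-gestation the liver is also the main site of red cell production.

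In these libraries the 8 hepatocyte markers (for example albumin) were all above 1 TPM (a level per length of RNA, scaled to library size), with medians of 977 TPM in replicate 1 and 932 TPM in replicate 2, and the 8 erythroid markers had medians of 212 and 202 TPM. Of the 8 kidney tubule markers none reached 1 TPM in both libraries, their summed levels were 0.89 and 0.83 TPM, and Umod had no count. All 8 endothelial markers, 6 of 8 macrophage, 7 of 8 mesenchymal and 4 of 8 cholangiocyte markers had at least 1 TPM in both libraries, and no marker of testis, placenta or of choroid plexus and neural tissue did. Gene counts totalled 102720920 in replicate 1 and 65640933 in replicate 2, and the 50 transporter genes took 28326 and 22512 of them. A gene with no count could still have had up to 3 counts per library, or 0.0292 and 0.0457 CPM (counts scaled to library size), which covers counting error only. Because tissue was measured in bulk, fewer cells of a type and less RNA per cell cannot be told apart.

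Most of the transporter RNA came from a few Slc22 genes that are not the classical hepatic uptake carriers. Slc22a4 and Slc22a23 together held 52.5% of the summed level of all 50 genes in replicate 1 and 50.2% in replicate 2, and adding Slc22a18 brought the share to 61.1% in replicate 1 and 64.9% in replicate 2. Of the 50 genes, 13 (26%) had at least 1 TPM in both libraries, against 49.5% of the 21474 protein-coding genes. A further 9 had a mean between 0.1 and 1 TPM and 28 a mean below 0.1 TPM. No count in either library was recorded for 11 of the 50 (22%), against 19.7% of protein-coding genes. Those 11 were Slc10a2, Slc22a12, Slc22a16, Slc22a19, Slc22a20, Slc22a22, Slc22a26, Slc22a28, Slco1a5, Slco6c1 and Slco6d1.

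By family, the summed levels were 60.1 and 67.1 TPM for Slc22 in replicates 1 and 2, 10.48 and 11.02 TPM for Slc10, 6.11 and 5.83 TPM for Slc47, 3.66 and 4.24 TPM for Slco and 0.32 and 0.29 TPM for Slc51. The 5 families kept this order in both libraries, and no family's range overlapped that of another. Slc22 thus held 74.5% of the total in replicate 1 and 75.8% in replicate 2. At least 1 TPM in both libraries was reached by 8 of 25 Slc22 genes, 3 of 7 Slc10 genes, 1 of 2 Slc47 genes, 1 of 14 Slco genes and neither Slc51 gene.

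**Figure D1:**
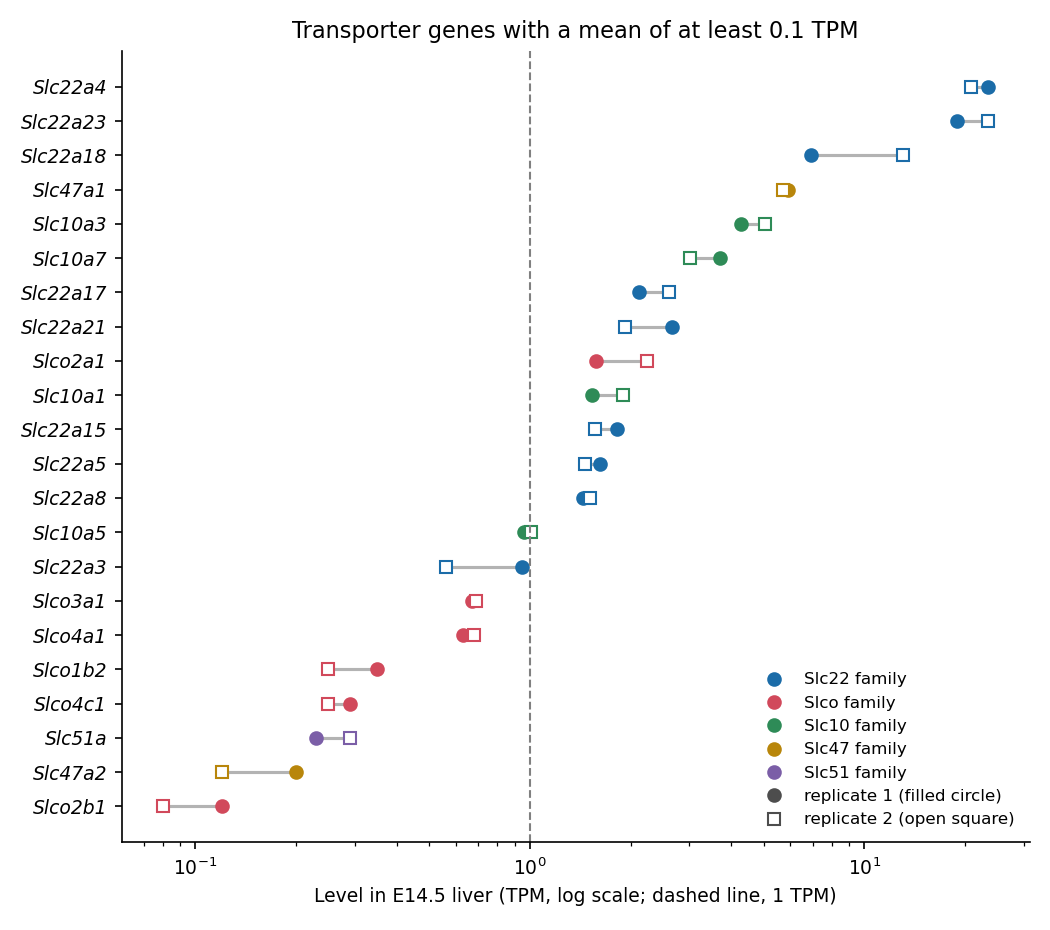
Level in TPM on a log scale of the 22 transporter genes whose mean was 0.1 TPM or more, with replicate 1 as filled circles and replicate 2 as open squares, coloured by family. Slc22a4 and Slc22a23 lie near 20 TPM, and the only Slco gene right of the dashed line at 1 TPM is Slco2a1.

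Of the carnitine and zwitterion carriers of the Slc22 family, 3 lie side by side on the minus strand of chromosome 11, and all 3 were above 1 TPM. Slc22a4 (chr11:53983123-54028090, mm10), which carries ergothioneine and other zwitterions, was at 23.4 TPM in replicate 1 and 20.9 TPM in replicate 2 (mean 22.2 ± 1.79, SD, n = 2). Its neighbour Slc22a21 (chr11:53949965-53980332), a carnitine transporter of rodents, was at 2.66 and 1.93 TPM. Slc22a5 (chr11:53864542-53891660), the high-affinity carnitine importer, was at 1.62 and 1.46 TPM. Slc22a4 was the highest transporter gene in replicate 1 and the second highest, after Slc22a23, in replicate 2. The estimated counts of Slc22a21 and Slc22a5 were not whole (591 and 408 for Slc22a21, 561 and 380 for Slc22a5), and their posterior SDs were the same for both genes, 4.44 counts in replicate 1 and 3.08 in replicate 2. How reads that match more than 1 of these neighbours were divided was not tested.

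The junction table, which is on the mm9 build and sums 2 replicates not tied to the libraries, supported all 10 annotated introns of Slc22a4 with 173 to 798 reads each. One unannotated junction from the end of exon 3 of Slc22a4 had 345 reads, 202 and 143 in the 2 replicates, with an irreproducible discovery rate of 0. It spanned chr11:53742979-53818895 (mm9), skipped the Slc22a21 gene and ended at the edge of the only exon of Gm12220, an unprocessed pseudogene. The annotated splice from the same donor to exon 4 had 647 reads, so the pseudogene junction held 34.7% of the 994 reads that left this donor. Gm12220 itself had no count in either mm10 library and an RPKM of 0 in the mm9 exon table, and none of the deposited junctions left its other end.

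The Gm12220 exon (chr11:53929305-53929476, mm10) and exon 4 of Slc22a4 (chr11:53997377-53997548, exon 4 of 10 in Slc22a4-201) are both 172 bases long and identical at 167 bases, or 97.1%. They are shown in full because reads from the one can align to the other, with the 5 differing bases in capitals. Both are on the minus strand and are printed 5′ to 3′ from the GENCODE M21 transcripts.
Slc22a4 exon 4: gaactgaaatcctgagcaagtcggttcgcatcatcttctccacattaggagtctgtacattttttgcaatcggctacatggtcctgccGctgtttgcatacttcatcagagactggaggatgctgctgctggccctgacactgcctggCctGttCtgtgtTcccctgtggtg
Gm12220: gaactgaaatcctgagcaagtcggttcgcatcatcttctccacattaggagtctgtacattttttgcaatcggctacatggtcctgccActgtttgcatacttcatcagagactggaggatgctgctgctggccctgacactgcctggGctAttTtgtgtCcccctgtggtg
The first 88 bases from the acceptor side are the same in both, and all 5 differences lie beyond them, the last with 11 identical bases after it. Exon 4 of Slc22a5 was 79.7% identical to the Gm12220 exon and exon 4 of Slc22a21 was 76.7% identical. Whether the 345 reads came from exon 4 of Slc22a4 or from the pseudogene was not tested. Smaller junctions entered the same acceptor from the first exon of Slc22a4 (20 reads) and from Slc22a21 (15 reads). Another 12 junctions joined exons of 2 different genes among Slc22a4, Slc22a21 and Slc22a5, with 70 reads in all beside 6416 reads in the annotated introns of the 3 genes.

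**Figure D2:**
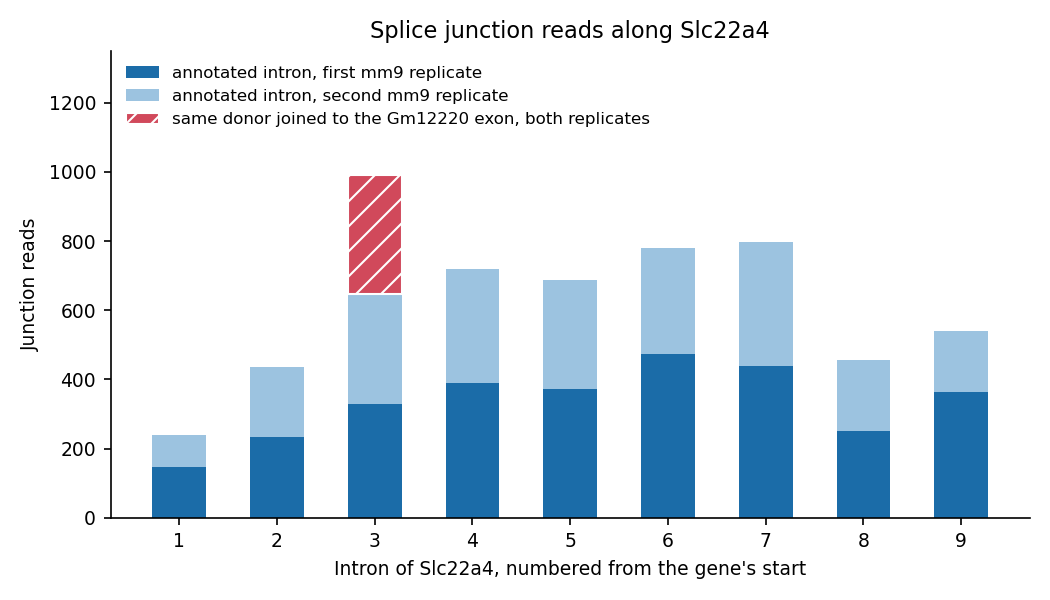
Junction reads (y axis) at each of 9 successive introns of Slc22a4 (x axis), stacked by mm9 replicate, with the reads that joined exon 3 to the Gm12220 exon hatched. Annotated reads ran from 240 at intron 1 to 798 at intron 7, and the hatched 345 reads sit on the 647 annotated reads of intron 3.

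Among the remaining Slc22 genes, the orphan transporter Slc22a23 (chr13:34179158-34345182, mm10, minus strand) was at 18.9 TPM in replicate 1 and 23.5 TPM in replicate 2. Its RNA was divided between 2 protein-coding models: the 5011-base Slc22a23-205 took 49.8% and 50.9% of the gene's level, and the 6251-base Slc22a23-201 took 41.0% and 29.2%. Slc22a18 (chr7:143473736-143499334), an imprinted orphan transporter gene, was at 6.92 and 13.0 TPM and is described with the differences between the libraries below. Slc22a17, which encodes a receptor for lipocalin-2, was at 2.12 and 2.60 TPM. Slc22a15, a carrier of zwitterions, was at 1.82 and 1.57 TPM, but only 27.5% and 35.0% of this was assigned to its protein-coding models. The leading Slc22a15 model, Slc22a15-202 with 52.1% and 44.2%, is annotated as a processed transcript without a coding sequence. By counts it led the coding Slc22a15-207 in replicate 1 (203 against 110) but not in replicate 2 (110 against 128). On the mm9 build the coding Slc22a15-201 led instead, with 68.7%.

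The classical organic cation and anion carriers were low, with Slc22a8 as the exception. Slc22a8 (chr19:8591254-8611835), the organic anion transporter 3 of kidney tubules and choroid plexus, was at 1.44 and 1.51 TPM from 594 and 473 counts. Junction reads supported 10 of its 12 annotated introns, with 50 to 104 reads in each of the 10, and the 2 introns without a read were the pair that leave the most upstream first exon. Slc22a8 held 594 of the 615 counts of its 8-gene cluster on chromosome 19 in replicate 1 and 473 of 476 in replicate 2. Its neighbour Slc22a6, the kidney organic anion transporter 1, had 3 and 1 counts, and Slc22a7, the organic anion transporter 2, had 4 and 3 counts. Of the 8 kidney tubule markers 1 (Umod) had no count in either library, and the highest, Slc5a2, was at 0.76 and 0.71 TPM from 199 and 126 counts. Of the choroid plexus markers Kl had 11 and 2 counts, Otx2 6 and 0, and Kcnj13 none. The part of either cell type in the Slc22a8 values was not tested.

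Among the organic cation transporters, Slc22a2, the kidney carrier, had 9 and 1 counts. Slc22a3, which carries monoamines, was at 0.95 and 0.56 TPM from 394 and 178 counts. Slc22a3 adjoins the plasminogen gene Plg, at 191 and 162 TPM (a neighbour chosen after its values were seen). Exons of Slc22a3 and Plg overlap on opposite strands over 9.31% of the exonic bases of Slc22a3, and whether the counting used the strand is not stated, so their reads cannot be told apart there. All 10 annotated introns of Slc22a3 had junction reads, between 13 and 45 each.

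Slc47a1 (chr11:61343401-61378345), which encodes the proton-coupled organic cation exporter MATE1, was the fourth highest transporter gene at 5.91 and 5.71 TPM. Its leading model Slc47a1-201 held 84.9% and 89.5% of the level, and all 20 annotated introns had junction reads. On the mm9 build another model of Slc47a1 led, with 52.2%. The adjacent Slc47a2 was at 0.20 and 0.12 TPM, from 55 and 24 counts.

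Within the Slc10 family the bile acid carrier was not the leading gene. Slc10a3, an orphan member on chromosome X, was at 4.28 and 5.06 TPM, and Slc10a7, a member linked to calcium handling and glycosylation, was at 3.69 and 3.02 TPM. Slc10a1 (chr12:80953183-80968705), the sodium taurocholate cotransporter of the hepatocyte's sinusoidal membrane, came after both with 1.53 and 1.90 TPM from 283 and 258 counts. The ranges of Slc10a3 and Slc10a1 did not overlap. All 4 annotated introns of Slc10a1 had reads, 39 to 112 each. Slc10a5, an orphan gene without introns, lay on either side of the 1 TPM line at 0.96 and 1.01 TPM.

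The other Slc10 genes were close to the counting floor. Slc10a2, the bile acid carrier of ileum and bile ducts, had no count in either library and no junction read over its 5 introns. Slc10a4, found in synaptic vesicles, had 5 and 9.9 counts, and Slc10a6, a carrier of steroid sulphates, had 2 and 0 counts. The annotation limits 2 of the Slc10 values: 12.8% of the exonic bases of Slc10a3 lie within exons of Ubl4a on the same strand, and 6.83% of those of Slc10a5 within Gm38303. The leading model of Slc10a3 also differed between the libraries, Slc10a3-201 with 46.0% in replicate 1 and Slc10a3-202 with 75.6% in replicate 2. On the mm9 build Slc10a3-204 led with 53.8%, a model with no count in either mm10 library.

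The Slco family was led by Slco2a1 (chr9:102988712-103096002), the prostaglandin transporter, at 1.58 and 2.24 TPM from 1346 and 1349 counts. Slco3a1, a broadly expressed member, followed at 0.67 and 0.69 TPM, and Slco4a1, a thyroid hormone carrier, at 0.63 and 0.68 TPM. These neighbours in the order overlapped each other, and both lay below Slco2a1 in either library. The hepatocyte bile acid and drug carrier Slco1b2 (chr6:141629518-141686646) was at 0.35 and 0.25 TPM from 137 and 73 counts, with junction reads over 13 of its 16 introns. Slco4c1 was at 0.29 and 0.25 TPM and Slco2b1, which carries steroid sulphates, at 0.12 and 0.08 TPM.

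The remaining genes of the 6-gene Slco1 cluster on chromosome 6 were almost silent at this depth. Slco1a1 and Slco1a4, which are abundant in adult mouse liver, had 2 and 1 counts in replicate 1 and none in replicate 2. Slco1c1, the thyroxine carrier of brain capillaries, had 5 and 6 counts, Slco1a6 had 0 and 1, and Slco1a5 had none. Slco1b2 therefore supplied 137 of the 145 counts of the cluster in replicate 1 and 73 of 80 in replicate 2. Slco5a1 was at 2 and 15 counts, and of Slco6c1 and Slco6d1 no count was found.

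The 2 subunits of the bile acid exporter, which have to pair for transport, were measured unequally. Slc51a was at 0.23 and 0.29 TPM from 40 and 37 counts, and reads crossed all 8 of its introns. Slc51b, whose model is 488 bases long against 1600 for Slc51a, was at 0.09 and 0 TPM. It had 3 counts in replicate 1 and none in replicate 2, too few for a test. Exons on the opposite strand overlap 17.7% of the exonic bases of Slc51a (Pcyt1a) and 12.8% of those of Slc51b (Rasl12).

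Genes that work with these transporters were measured from lists of known members. Of the 12 bile acid synthesis genes 8 had at least 1 TPM in both libraries, led by the sterol carrier Scp2 (188 and 117 TPM), the dehydrogenase Hsd3b7 (43.9 and 44.0 TPM) and the peroxisomal oxidase Acox2 (17.3 and 21.5 TPM). Of 10 export pumps 5 reached that level, led by Abcg2 (64.1 and 48.8 TPM), the phospholipid exporter Abcb4 (19.6 and 13.6 TPM) and the conjugate exporter Abcc2 (12.7 and 13.5 TPM). Abcc2 stood above the sinusoidal importers Slc10a1 and Slco1b2 in both libraries. The bile salt export pump Abcb11, named after its values were seen, was at 3.35 and 1.84 TPM, above Slc10a1 in replicate 1 and below it in replicate 2. From its 1382 and 778 counts the log2 ratio was only -0.18, and Abcb11 was not called (exact binomial test, adjusted p = 0.0103). The rate-limiting enzyme of bile acid synthesis, Cyp7a1, chosen after its values were seen, was at 0.47 and 0.12 TPM from 63 and 45 counts. By counts its log2 ratio was 0.17 and it was not called (exact binomial test, adjusted p = 0.639).

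Of 14 regulators of transporter genes 11 had at least 1 TPM in both libraries, led by the stress-responsive factor Nfe2l2 (29.1 and 24.4 TPM) and the liver factors Hnf4a (22.0 and 23.0 TPM) and Cebpa (14.3 and 17.8 TPM). All 6 membrane scaffold and partner genes passed it, with Bsg, a chaperone of monocarboxylate carriers, at 555 and 464 TPM, Slc9a3r1 at 39.6 and 37.5 TPM and Ezr at 29.9 and 17.4 TPM. Of 6 genes that use or carry carnitine 5 passed, led by Cpt2 (25.3 and 21.5 TPM), Crot (18.91 and 10.96 TPM) and Crat (14.1 and 14.5 TPM). The carnitine importer Slc22a5 was below the 3 of them in both libraries. None of these 5 lists had a gene called different between the libraries in the test described next, which called 8.33% of all genes tested.

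The difference between the libraries was tested with a 2-sided exact binomial test per gene on estimated counts scaled by library size, and a call required both an adjusted p below 0.05 and a ratio of 2-fold or more. The test compares these 2 libraries and no condition. It called 8.33% of the 17906 genes with at least 10 counts in all, 3.8% higher and 4.53% lower in replicate 2. Among the transporters 26 had enough counts and 2 were called, both higher in replicate 2, which is 7.69% of those tested and near the background of this test. The edgeR exact test, which allows for a spread beyond counting noise, called the same 2 members but only 3.99% of all genes.

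Slc22a18 had 1129 counts in replicate 1 and 1548 in the shallower replicate 2. The log2 ratio was 1.10 (95% counting interval 0.99 to 1.22), or 2.15-fold higher in replicate 2 (exact binomial test, adjusted p = 5.27e-85). The ratio of its TPM values was 0.91 on the log2 scale and missed the 2-fold line. The share of its leading model, Slc22a18-201, was 78.5% and 76.3%, so the division among transcripts stayed close while the level differed. Slc22a18 lies in an imprinted domain of chromosome 7, and its neighbours, chosen after their values were seen, did not all follow it. The imprinted gene Phlda2 had a log2 ratio of 0.83, Cdkn1c one of -0.14, Nap1l4 one of -0.05 and Cd81 one of 0.47, none of them called, and Kcnq1 (42 and 56 counts) was called at 1.06.

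Slco5a1 was counted 2 times in replicate 1 against 15 times in replicate 2. Its log2 ratio was 3.28 (interval 1.45 to 6.73; exact binomial test, adjusted p = 9.79e-05). Slc10a4, with 5 and 9.9 counts, had a log2 ratio of 1.58 (interval -0.03 to 3.55) and was not called (exact binomial test, adjusted p = 0.0558). In the 8-gene list of neural and choroid plexus markers, whose summed level was 1.20 TPM in replicate 1 and 4.84 TPM in replicate 2, the 5 neural genes (Tubb3, Elavl3, Stmn2, Snap25 and Nefl) were all called higher in replicate 2, and Tubb3 had 141 and 588 counts. The 3 choroid plexus genes were not: Kl had 11 and 2 counts, Otx2 had 6 and 0, and Kcnj13 had none. The part of neural RNA in the Slco5a1 and Slc10a4 values was not tested.

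Apart from Slc22a18, Slco5a1, Slc10a4 and Slc22a2, whose 9 and 1 counts gave an interval that includes 0, the ratios of all tested transporters were within 2-fold. Of the 26 log2 ratios 21 were above 0 and 5 below, with a median of 0.28, against 49.8% above 0 and a median of -0.0024 over all genes tested. That split depends on the scale: with the TPM values 14 were higher and 12 lower in replicate 2, and with spike-in scaling, which moves all log2 ratios by 0.65, 25 were higher and 1 lower. Slco2a1 had the largest ratio among genes over 1 TPM after Slc22a18, with a log2 ratio of 0.65 (interval 0.54 to 0.76), and Slc10a1 was at 0.52 (0.27 to 0.76). Slc22a3 had a log2 ratio of -0.50 (-0.76 to -0.24), and Slc22a4 was at 0.01 (-0.06 to 0.07). None of these 4 was called, since each lay within 2-fold.

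**Figure D3:**
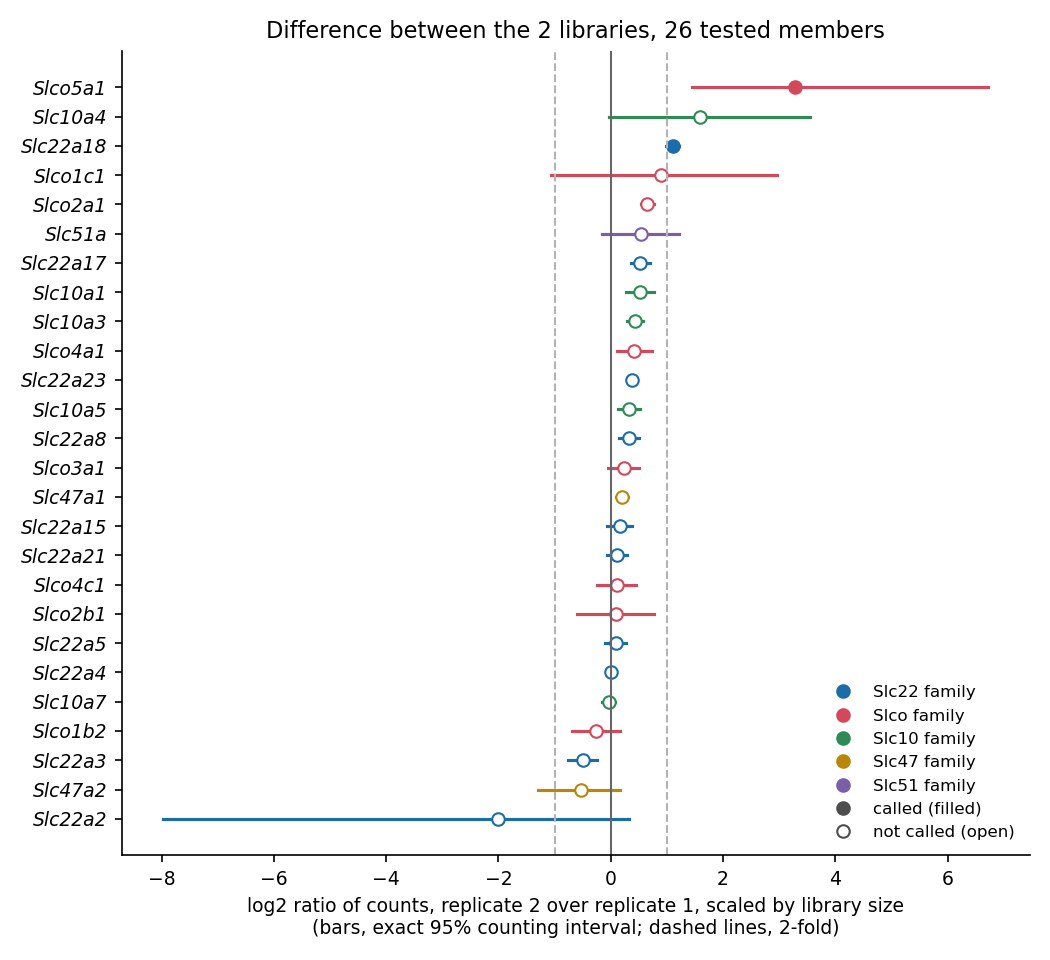
Log2 ratio of replicate 2 over replicate 1 (x axis) for the 26 tested transporter genes (y axis), with exact 95% counting intervals as bars and called genes filled. Slc22a18 and Slco5a1 are filled, and Slc22a2, with 9 and 1 counts, has the widest bar.

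Most of the higher members were led by a coding transcript model. Of the 13 members averaging 1 TPM or more, 10 had more than 1 transcript model, and in 8 of these the same model led in both libraries. A protein-coding model led by mean share in 9 of the 10. In Slc22a21 the processed transcript Slc22a21-203 (44.1%) was just ahead of the coding Slc22a21-201 (42.6%) in replicate 1. Slc22a21-201 led in replicate 2 with 60.1%. By counts the coding model led in both libraries, with 464 against 107 in replicate 1 and 363 against 41 in replicate 2. Slc22a4 had 79.7% and 76.5% of its level in its coding model, and 20.1% and 21.2% in the 566-base processed transcript Slc22a4-203. Such short models weigh more in TPM than in counts, and Slc22a4-203 took 210 of the 5045 counts in replicate 1 and 116 of 3232 in replicate 2. The mean fragment length was 213 bases in replicate 1 and 302 bases in replicate 2. Its part in the levels and shares of short models was not tested.

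**Figure D4:**
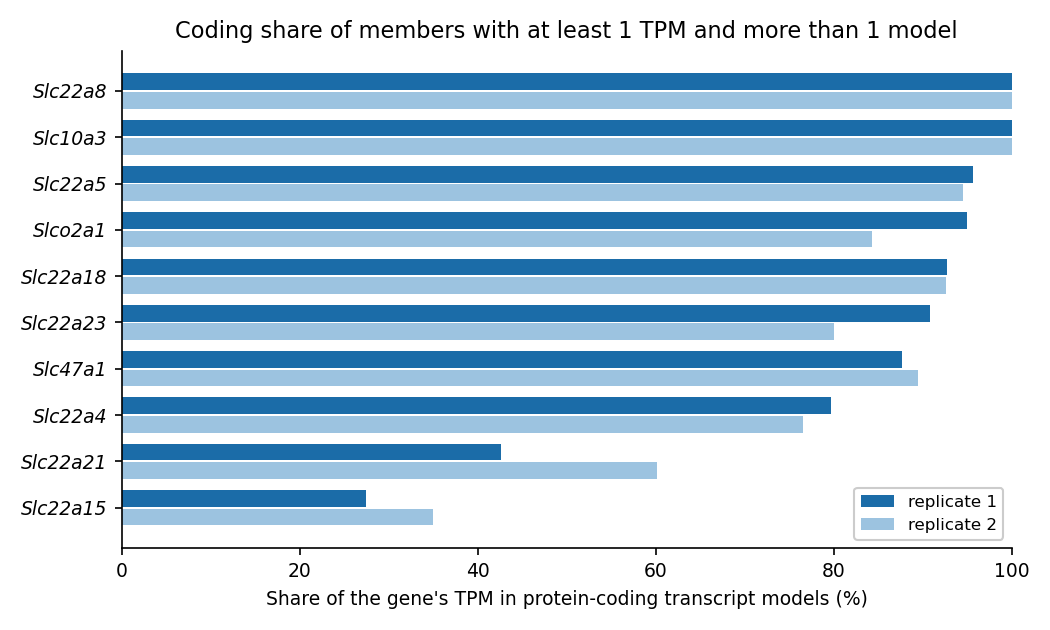
Percent of each gene's TPM assigned to protein-coding models (x axis) in replicates 1 and 2 for the 10 members with at least 1 TPM and more than 1 model. Slc22a15 and Slc22a21 have the shortest bars, and Slc22a8 and Slc10a3 reach 100% in both.

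Of the 580 annotated introns of the 50 genes in mm9, 267 (46.0%) had at least 1 junction read. In the 13 members averaging 1 TPM or more reads crossed 141 of 155 introns (91.0%), and in the other 37 members 126 of 425 (29.6%). No junction read was found in 15 of these 37, among them Slc10a5, which has no intron. Low transporters with nearly complete chains were Slc22a3 (10 of 10 introns), Slc51a (8 of 8), Slco4c1 (11 of 12), Slco4a1 (12 of 14) and Slco1b2 (13 of 16), all named after their values were seen.

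Promoter windows of 250 bases before to 50 bases after the start were present in the RefSeq table (GRCm38.p6) for 42 of the 50 genes, 48 windows in all. Among those with no entry were Slc10a3, Slc22a21, Slc47a1 and Slco5a1. CpG dinucleotides numbered 18 at the median in the 11 windows of members averaging 1 TPM or more, 3 in the 37 windows of the other members and 7 in all 32851 windows. Of 11 members with at least 10 CpG in a window 7 reached 1 TPM, and of 31 members with fewer 3 did, namely Slc10a1, Slc22a18 and Slc22a8. Over the 42 genes the CpG number and the mean level had a Spearman rho of 0.52, given as a description, since gene families share ancestry. The part of base composition in it was not tested.

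**Figure D5:**
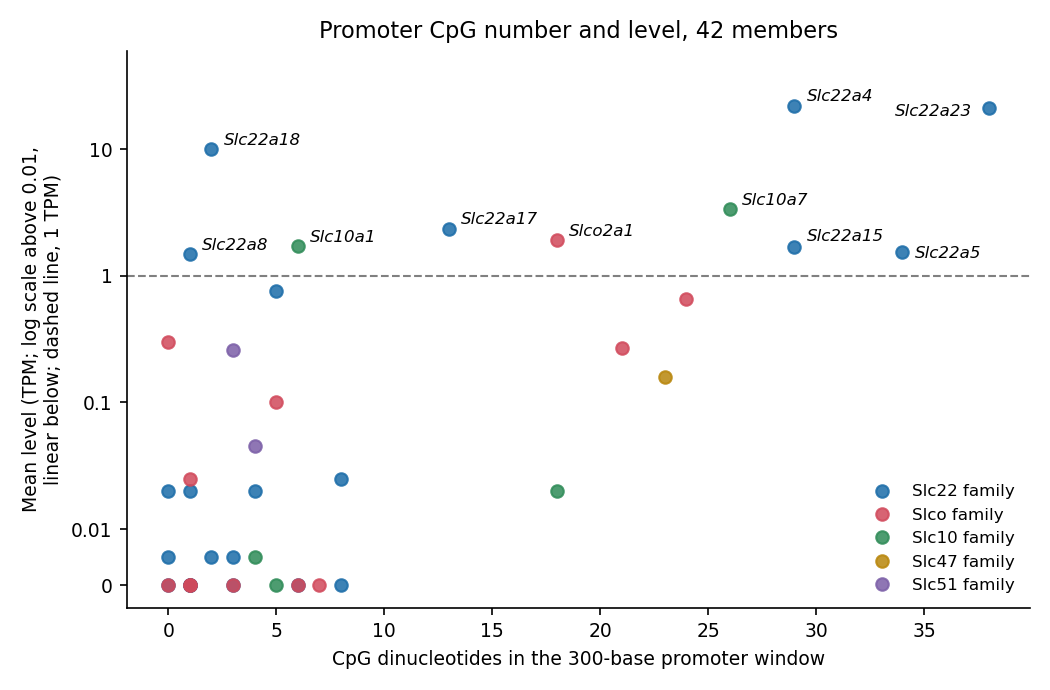
Mean level in TPM (y axis, logarithmic above 0.01 and linear below) against the number of CpG dinucleotides in the 300-base promoter window (x axis; the richest window of a gene) for 42 transporter genes. The 2 highest genes, Slc22a4 with 29 CpG and Slc22a23 with 38 CpG, are on the right, and Slc22a18 with 2 CpG is on the left.

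The windows of the 2 highest members and of the hepatocyte bile acid carrier Slc10a1 are shown, 2 rich in CpG and 1 of the exceptions, with CpG dinucleotides in capitals. They lie at chr11:54028055-54028354 (Slc22a4), chr13:34345169-34345468 (Slc22a23) and chr12:80968030-80968329 (the Slc10a1 window whose start is that of the deposited transcript model), all on the minus strand and printed 5′ to 3′ from RefSeq. The start in the Slc22a23 window, at 34345218, is not that of its leading model. Slc22a23-205 starts farther downstream at 34344451, and the second model, Slc22a23-201, starts close to the window's start, at 34345182.
Slc22a4: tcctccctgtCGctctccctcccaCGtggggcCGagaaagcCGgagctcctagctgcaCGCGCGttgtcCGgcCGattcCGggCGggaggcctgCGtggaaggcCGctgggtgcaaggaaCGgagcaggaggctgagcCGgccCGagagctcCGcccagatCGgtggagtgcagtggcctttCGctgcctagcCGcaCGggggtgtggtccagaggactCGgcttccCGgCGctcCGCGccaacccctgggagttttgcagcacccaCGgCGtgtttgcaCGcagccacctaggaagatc
Slc22a23: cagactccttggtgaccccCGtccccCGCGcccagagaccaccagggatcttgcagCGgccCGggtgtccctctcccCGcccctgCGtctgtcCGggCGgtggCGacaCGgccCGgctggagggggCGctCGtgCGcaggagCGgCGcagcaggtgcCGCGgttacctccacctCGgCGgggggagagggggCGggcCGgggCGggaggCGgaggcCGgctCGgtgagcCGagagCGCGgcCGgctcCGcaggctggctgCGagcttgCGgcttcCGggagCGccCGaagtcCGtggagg
Slc10a1: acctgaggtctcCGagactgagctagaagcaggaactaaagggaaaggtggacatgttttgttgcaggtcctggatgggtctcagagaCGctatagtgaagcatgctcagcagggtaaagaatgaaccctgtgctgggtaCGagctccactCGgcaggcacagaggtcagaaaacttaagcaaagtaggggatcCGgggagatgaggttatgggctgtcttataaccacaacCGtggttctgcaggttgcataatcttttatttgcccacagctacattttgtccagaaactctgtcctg
The GC content of these windows was 69.0%, 77.3% and 49.7%, against a median of 52.7% over all windows. The 3 windows hold 29, 38 and 6 CpG, and a second, more upstream Slc10a1 window holds 2.

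The hexamer of the hepatocyte and kidney factor HNF1 was searched as GTTAAT on both strands. It occurred in 5 of the 48 transporter windows (10.4%), those of Slc10a2, Slc22a29, Slc22a6, Slc22a8 and Slco1b2, and in 7.10% of all windows. The windows of the 2 of these genes averaging 0.1 TPM or more are shown with the hexamer in capitals, at chr19:8592932-8593231 (Slc22a8) and chr6:141629268-141629567 (Slco1b2), both on the plus strand. The Slco1b2 window has the start of its leading transcript model, and the RefSeq start of Slc22a8 lies 1893 bases downstream of the start of Slc22a8-201.
Slc22a8: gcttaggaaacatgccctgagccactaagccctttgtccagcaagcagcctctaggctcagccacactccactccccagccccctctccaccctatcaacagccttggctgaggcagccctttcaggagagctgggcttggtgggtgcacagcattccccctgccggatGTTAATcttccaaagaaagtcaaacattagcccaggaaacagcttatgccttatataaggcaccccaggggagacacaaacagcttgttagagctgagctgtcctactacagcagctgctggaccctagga
Slco1b2: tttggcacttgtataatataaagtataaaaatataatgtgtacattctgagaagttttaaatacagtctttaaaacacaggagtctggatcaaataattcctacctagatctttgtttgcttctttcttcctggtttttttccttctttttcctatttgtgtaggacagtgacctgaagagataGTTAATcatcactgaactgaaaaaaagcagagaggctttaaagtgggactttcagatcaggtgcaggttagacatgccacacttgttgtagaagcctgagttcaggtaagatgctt
The hexamer begins 81 bases before the start in Slc22a8 and 66 bases before it in Slco1b2. Its other 3 carriers, Slc10a2, Slc22a29 and Slc22a6, had at most 7 counts in a library. Further motifs were searched on both strands in the same windows. The HNF4 site, spelled CAAAGTCCA, was in none of the 48 transporter windows and in 0.475% of all windows. The GATA factor site, spelled AGATAA, was in 4 (8.33%) and in 11.2% of all windows. The E-box, spelled CACGTG and the same on both strands, was in 4 (8.33%) and in 7.15% of all windows, and the window of Slc22a4 holds one. The TATA box, spelled TATAAA, was in 9 (18.8%) and in 13.6% of all windows. A match is a description of letters and shows no binding.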

How the data were processed

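Liver RNA of E14.5 mouse embryos was measured in 2 libraries of 1 group. Per the file headers, the authors deposited for each library expected counts (estimated counts that need not be whole), TPM, FPKM and the percent of a gene's abundance in each transcript, and a deposited note names mm10, annotation M4 and transcriptome alignments. The quantification tool and the use of strand: not given in the sources used here. The authors also deposited mm9 (Ensembl V65) RPKM and splice junctions, with a count of reads and an irreproducible discovery rate (like a p-value, small where replicates share a junction). Because no source ties the mm9 replicates to the libraries, their sum or mean was used.

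Identifiers were matched to GENCODE M21 (42462 of 43346 got a symbol). Rows of spike-ins (2.84% and 1.82% of counts) and phiX (0.0764% and 0.0857%) were left out, as were 26248 rows named only by a number, which held 2 counts in replicate 1 and 0 in replicate 2. A quasi-likelihood fit needs groups and was not possible here. Instead, rounded expected counts were compared between the libraries with a two-sided exact conditional binomial test (scipy 1.17.1), TMM effective sizes (edgeR 4.0.16) and Benjamini-Hochberg adjustment over the 17906 genes whose counts summed to 10 or more. A call needed an adjusted p below 0.05 and 2-fold, with 0.5 added to each count in the fold. Tested on simulated Poisson counts (17905 genes tested), the procedure recovered 96.8% of 94 genes set to 3-fold and 100% of 106 set to 6-fold, and called 0 unchanged genes. The changed genes were drawn from genes with totals well above the minimum of 10 counts, so recovery near that minimum was not measured. The simulation held counting noise only, so it does not show how often unchanged genes are called under a larger spread. Intervals are exact 95% binomial intervals and cover counting error only. Whether reads carry molecular identifiers is not stated.

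The members and all lists were chosen with earlier results of these data known. Named are the members averaging 1 TPM or more, the highest of each family and Slco subfamily, called members, members at 0, a fixed list of well-known carriers, and of each list of partner genes the 3 highest and any called. Members named beyond these were chosen after their values were seen, and 1 member is not reported here by name. Alternatives were DESeq2 1.42.0 size factors, total and spike-in counts, no count minimum, a pseudocount of 1, an edgeR exact test with the dispersion of 13 housekeeping genes (coefficient of variation 15.8%), FPKM or TPM, other level minimums, the mm9 tables and each library alone.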

Additional observations from a re-analysis of the deposited data

How the results depend on the processing

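With 2 libraries of 1 group no value has a spread over more than these 2, members with few counts have wide intervals, and the test measures counting noise alone. No paired analysis was possible because all samples belong to 1 group. Of the 26 tested members 2 were called with TMM sizes, DESeq2 size factors, total gene counts, a pseudocount of 1 and the edgeR exact test, each time Slc22a18 and Slco5a1, and 3 without a count minimum (with Slc22a27, at 9 and 0 counts). Spike-in scaling called 10, each of them higher in replicate 2, and 21.7% of all genes. The share of all genes called was 3.99% with the edgeR exact test and between 7.55% and 8.34% with the settings other than these 2. The number of members at 1 TPM or more was 13, and it was 7 with a minimum of 2 TPM, 8 with the mm9 mean RPKM, and between 13 and 14 with either library alone. Summed FPKM in place of TPM gave 85.4 for Slc22, 14.4 for Slc10, 7.95 for Slc47, 5.33 for Slco and 0.40 for Slc51, on another scale. With the FPKM ratio the log2 differences of Slc10a7 (0.013), Slc22a21 (-0.15) and Slco2b1 (-0.22) changed sign. With the TPM ratio those of Slc22a15 (-0.21), Slc22a21 (-0.46), Slc22a4 (-0.16), Slc22a5 (-0.15), Slc47a1 (-0.050), Slco2b1 (-0.58) and Slco4c1 (0.29 and 0.25 TPM) did, and Slc22a18 fell below 2-fold (0.91). With spike-in scaling those of Slc10a7 (0.62), Slc22a3 (0.16), Slc47a2 (0.12) and Slco1b2 (0.40) did. The cause of these changes was not tested, apart from the spike-in shift, which adds 0.65 to every log2 ratio. The leading transcript by the mean of both libraries led in 8 of 10 genes in replicate 1, in 10 of 10 in replicate 2 and in 7 of 10 in the mm9 table. Introns with reads numbered 267, 208 with at least 5 reads and 196 with an irreproducible discovery rate of at most 0.1.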

Other observations

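Genes that carry family names but are not protein-coding lay outside the 50 members. Slc22a13b-ps, a polymorphic pseudogene on chromosome 9, had 39.5 counts in replicate 1 and 32.8 in replicate 2, or 0.25 and 0.29 TPM, more than its coding relative Slc22a13 with 5.51 and 3.19 counts. Slco6b1, a transcribed pseudogene, had no count in either library.

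Slc22a4 also held unannotated junctions inside its own gene. A junction from its first exon, spanning chr11:53821313-53841085 (mm9), had 208 reads, beside 240 reads at the annotated acceptor of the same intron and 173 reads at an alternative annotated exon. Another joined the first exon to the third, with 66 reads.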
